A study of Mus musculus with 9 samples.

Results

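Interferon-stimulated genes are the genes that cells switch on when an interferon binds its receptor, and 39 of them, given as a list, were followed here on 9 2-colour Agilent mouse arrays. Probes were matched to the listed genes through their gene name or RefSeq accession, which gave 62 probes for 38 genes, out of 41174 probes in all. No probe was matched to Xaf1. Of the 38 genes, 36 entered the tests together with 14253 genes of the whole series: Oas1g was not well above background on any of the 9 arrays, and the probe of Ube2l6 had no usable spot on 1 array and is given separately.

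The study took 3 female Balb/c athymic mice, numbered 832, 833 and 834, a strain without a thymus and therefore with few T cells. Each mouse gave blood on day 0, before cells of the mouse hepatoma line Hepa1-6 were placed under the skin, and blood again on day 10. On day 10 the tumours were ground and their inflammatory infiltrate was enriched as a cell fraction (the TIC fraction). Each array set 1 of these 9 samples, labelled with Cy5, against the same kind of reference RNA, labelled with Cy3: blood of an untreated female C57Bl/6 mouse. Dyes were not swapped, and the reference differs from the samples in strain, so a level against the reference takes in dye and strain, which cannot be told apart. Blood RNA and TIC RNA were isolated with different kits, and the labels' protocols do not say how the TIC fraction was enriched.

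Type I interferons signal through the receptor chains Ifnar1 and Ifnar2 and the kinases Jak1 and Tyk2 to a transcription factor complex that contains Stat2 and Irf9 and binds interferon-stimulated response elements in the promoters of its targets. Interferon gamma acts on a different element, the gamma-activated site. The products include sensors of viral RNA and DNA, enzymes that degrade or block viral RNA, and proteins that trap or exclude virus particles. Isg15, Irf7, the Ifit genes and Rsad2 are classical targets of type I interferon, while the Gbp and immunity-related GTPase genes respond strongly to interferon gamma.

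The RefSeq promoter windows (build GRCm38.p6, 250 bases before to 50 bases after a start site) covered 29 of the 39 genes with 35 windows. The core of the response element, read as GAAA, any 2 bases and GAAA, was searched on both strands (TTTC, any 2 bases and TTTC on the reverse) and was found in 17 of the 35 windows (48.6%), against 3.44% of all 32851 windows of that length. The core of the gamma-activated site, TTCNNNGAA, which reads alike on both strands, was found in 7 of 35 (20%), against 8.3% of all windows. The 250 bases before the start site are shown for 5 genes described below that hold a match, chosen as examples after their values were seen: Rsad2, Isg15, Ifit1 and Oas3, which were higher in day 10 blood without overlap, and Bst2, which was higher in the TIC fraction. Capitals mark the matches, and each sequence runs 5′ to 3′ in the direction of its gene.
Rsad2 (chr12:26456453-26456702, minus strand): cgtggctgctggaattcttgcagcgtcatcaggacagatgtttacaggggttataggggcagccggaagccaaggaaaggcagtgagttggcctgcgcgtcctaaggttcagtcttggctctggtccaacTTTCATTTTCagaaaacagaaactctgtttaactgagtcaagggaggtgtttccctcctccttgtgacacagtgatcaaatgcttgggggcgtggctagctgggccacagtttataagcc
Isg15 (chr4:156200819-156201068, minus strand): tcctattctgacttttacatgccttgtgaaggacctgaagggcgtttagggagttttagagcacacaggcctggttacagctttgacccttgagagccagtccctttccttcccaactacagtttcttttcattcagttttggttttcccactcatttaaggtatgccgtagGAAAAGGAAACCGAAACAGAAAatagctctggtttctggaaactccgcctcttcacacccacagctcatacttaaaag
Ifit1 (chr19:34640639-34640888, plus strand): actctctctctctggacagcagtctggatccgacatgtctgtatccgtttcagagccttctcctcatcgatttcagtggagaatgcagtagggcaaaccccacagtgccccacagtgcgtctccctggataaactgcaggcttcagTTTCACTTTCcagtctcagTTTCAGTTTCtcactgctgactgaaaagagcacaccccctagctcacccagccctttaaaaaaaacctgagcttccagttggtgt
Oas3 (chr5:120777660-120777909, minus strand): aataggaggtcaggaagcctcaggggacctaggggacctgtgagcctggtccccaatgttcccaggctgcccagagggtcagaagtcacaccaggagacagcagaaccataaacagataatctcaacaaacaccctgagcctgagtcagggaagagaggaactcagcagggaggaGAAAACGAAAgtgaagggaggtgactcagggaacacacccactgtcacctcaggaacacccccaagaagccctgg
Bst2 (chr8:71537473-71537722, minus strand): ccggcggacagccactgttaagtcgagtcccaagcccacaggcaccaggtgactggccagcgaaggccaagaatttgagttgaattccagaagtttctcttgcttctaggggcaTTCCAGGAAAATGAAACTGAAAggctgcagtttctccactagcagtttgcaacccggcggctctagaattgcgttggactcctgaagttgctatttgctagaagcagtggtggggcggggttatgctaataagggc
The match in Rsad2 began 120 bases before the start site. Isg15 held 3 overlapping matches, beginning 78, 72 and 66 bases before it. Ifit1 held 2, at 104 and 85 bases, and Oas3 held 1, at 75. In Bst2, 2 overlapping matches at 130 and 124 bases adjoined a TTCNNNGAA match at 136 with which the first of them overlapped. The windows of Irf7, Isg20 and Oasl2, whose differences between the bloods were larger than that of Ifit1, held no response-element core. A match describes these letters only.

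Levels are log2 ratios of sample over reference after loess normalization, unless another scale is named. The sample channel was dimmest in day 10 blood: on the day 0 blood arrays 24.3% to 36.5% of spots passed the scanner's background test in Cy5, on the day 10 blood arrays 14.5% to 21.1%, and on the TIC arrays 47.4% to 54%. The TIC array of mouse 833 stood apart, correlating with the other TIC arrays at 0.88 and 0.90 over the tested genes while those correlated at 0.99. The loess values rest on the assumption that the ratios of most genes centre on 0 at each intensity, so 3 other scalings were computed: the log ratio deposited by the authors, the Cy5 channel alone after quantile normalization, and centring each array on its median without loess. The scaling mattered for the TIC fraction. The median difference of all genes between TIC and day 10 blood was 0.07 by loess, 0.21 in Cy5 alone, 0.85 by the deposited ratio and 1.38 after median centring. Against day 0 blood these medians were 0.01, 0.11, 0.36 and 1.16. Among all called genes the share higher in TIC than in day 10 blood was 51% by loess, 59.7% in Cy5 alone, 63.3% by the deposited ratio and 95.7% after median centring.

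**Figure D1:**
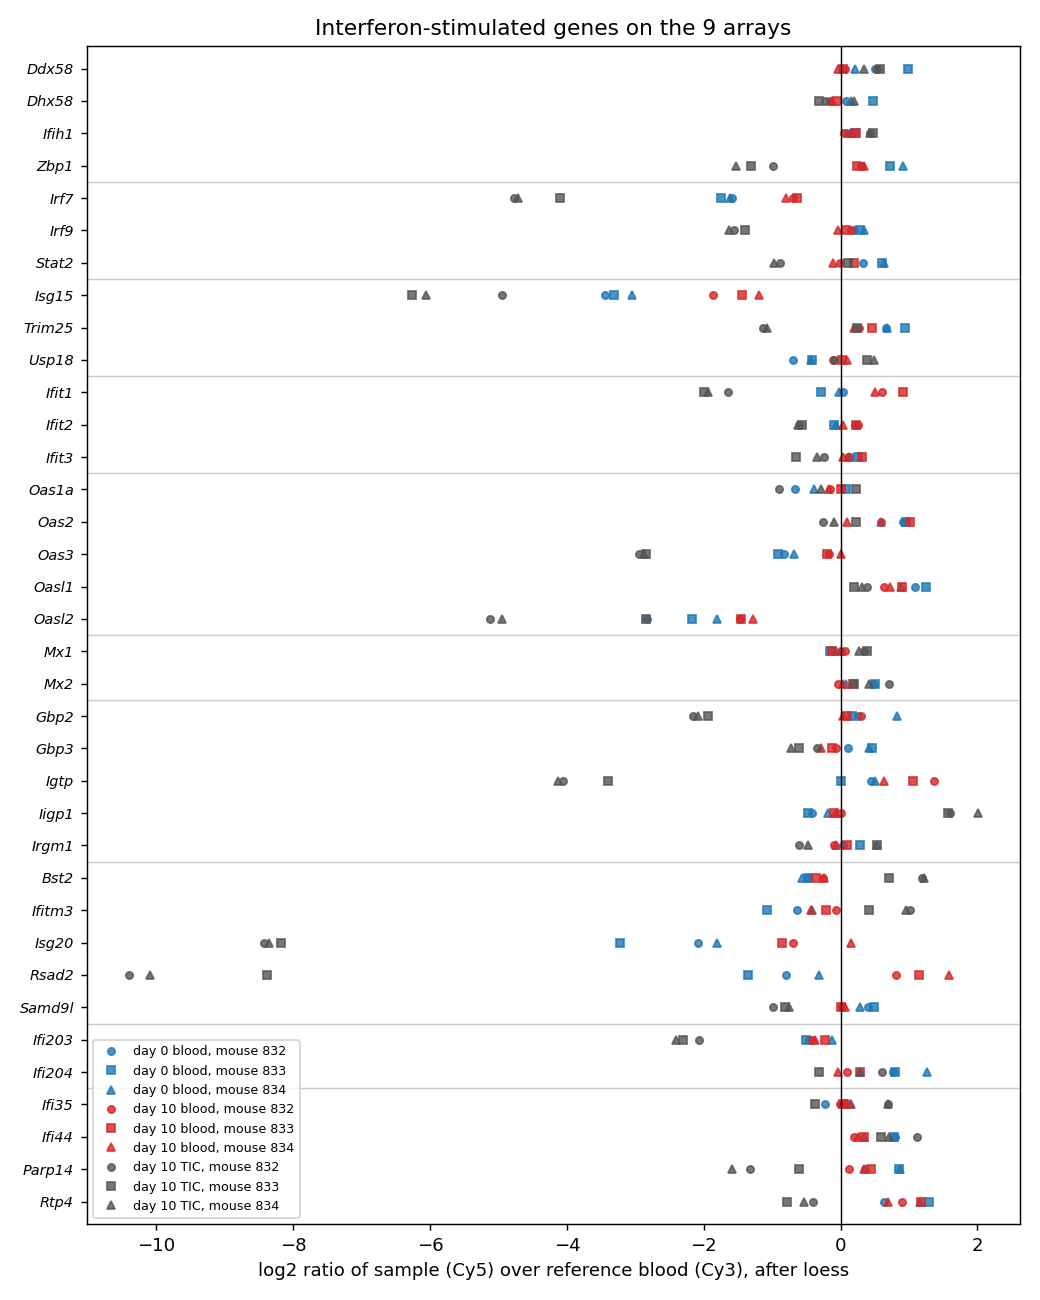
Log2 ratio of sample over reference after loess (horizontal axis) for the 36 tested genes (rows, grouped by role with grey lines between groups) on each of the 9 arrays; colour gives the group and marker shape the mouse. Rsad2, Isg20, Isg15 and Irf7 lie further right in day 10 blood than in day 0 blood and far left in TIC by this scaling, where after median centring Isg15 and Irf7 lie above day 10 blood; Iigp1, Bst2 and Ifitm3 lie right of both bloods in TIC.

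Against the reference, the 36 genes of day 0 blood had group means from -3.27 (Isg15) to 1.07 (Oasl1), with a median of 0.21. All 3 day 0 arrays were above the reference for 20 genes and below it for 11. In day 10 blood the group means ran from -1.50 to 1.18, with a median of 0.04, and these counts were 15 and 8. In the TIC fraction the group means ran from -9.63 (Rsad2) to 1.73 (Iigp1), with a median of -0.56, and all 3 arrays were below the reference for 18 genes and above it for 9. These are loess values, and such counts were not made over all genes, so they do not set the list apart from other genes.

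The first question was which genes rise in the blood of mice carrying a tumour. Rsad2, Isg20, Isg15 and Irf7 had the largest positive differences between day 10 and day 0 blood, from 0.94 to 2.0 on the log2 scale and in the same direction in all 3 mice, but none of the 36 genes passed an adjusted p of 0.05 in limma's fit over the 9 arrays. Neither did any of the 14253 genes, so 0% were called higher and 0% lower. With the mouse as a block 29 of all genes were called higher (0.203%) and 3 lower (0.021%), none of them among the 36. At an unadjusted p under 0.05, 8 of the 36 were higher and 5 lower, and over all genes 1240 were higher and 864 lower. The median difference of the 36 genes was -0.02, beside -0.01 for all genes, and 17 were above 0 and 19 below. In bulk RNA, more cells of a type and more RNA per cell cannot be told apart.

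Without overlap between the 3 arrays of each group, 11 of the 36 genes were higher in day 10 blood, against 15.7% of all genes. These were Rsad2, Isg20, Isg15, Irf7, Oasl2, Ifit1, Igtp, Oas3, Usp18, Iigp1 and Bst2. Iigp1 was dim (not well above background) on all blood arrays and Bst2 on every day 10 blood array, so their small differences, 0.30 ± 0.14 and 0.21 ± 0.14 (adjusted p = 0.37 and 0.576), compare values near background. In the other direction 8 did not overlap, against 17.2% of all genes: Ifi204, Ddx58, Stat2, Gbp3, Trim25, Samd9l, Dhx58 and Irf9.

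Among the transcription factors, Irf7 encodes the factor that amplifies type I interferon production. Its level was -1.58, -1.74 and -1.62 in the day 0 blood of mice 832, 833 and 834, and -0.69, -0.63 and -0.80 in their day 10 blood. All 3 day 10 arrays were above all 3 day 0 arrays, and the difference was 0.94 ± 0.17 (SE, n = 3 per group, adjusted p = 0.0702 in limma). Irf9 and Stat2, members of the response complex, went the other way, at -0.21 ± 0.11 and -0.50 ± 0.27 (adjusted p = 0.405 and 0.455). Stat2 was well above background on only 1 of the 3 day 10 blood arrays.

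Among the genes of ISG15 conjugation, Isg15 encodes the ubiquitin-like protein itself. Its level was -3.44, -3.31 and -3.05 in day 0 blood and -1.86, -1.44 and -1.19 in day 10 blood. The groups did not overlap, and the difference was 1.77 ± 0.33 (adjusted p = 0.0702). The files place its probe at chr17:45870420-45870479 of build mm8, whereas RefSeq places the gene on chromosome 4, so the position, or which sequence the probe reads, is uncertain. Usp18, the protease that removes ISG15 and dampens receptor signalling, differed by 0.52 ± 0.16 (adjusted p = 0.207). It was well above background on only 2 of 3 day 0 and 1 of 3 day 10 blood arrays. Trim25, a ligase for ISG15 and an activator of the RIG-I sensor, stood at -0.45 ± 0.33 (adjusted p = 0.624). Ube2l6, the conjugating enzyme for ISG15, was at 1.04, 0.74 and 0.65 in day 0 blood and at 1.31 and 1.58 in the day 10 blood of mice 833 and 834. In a fit that kept genes with a missing array, chosen after seeing the data and covering 14327 genes, its difference was 0.63 ± 0.55 (adjusted p = 0.716).

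Rsad2 encodes viperin, a radical-SAM enzyme that makes a chain-terminating nucleotide. Its brightest probe (chr12:27029262-27029321, mm8) read -0.79, -1.35 and -0.31 in day 0 blood and 0.81, 1.15 and 1.58 in day 10 blood. It was below the reference on every day 0 array and above it on every day 10 array, with a difference of 2.0 ± 0.51 (adjusted p = 0.139). The 2 other probes of Rsad2 gave 1.20 and 1.29. Isg20, a 3′ to 5′ exonuclease of single-stranded RNA (probe chr7:78787938-78787997, mm8), read -2.09, -3.22 and -1.81 in day 0 blood and -0.69, -0.85 and 0.16 in day 10 blood. Its groups did not overlap either, and the difference was 1.92 ± 0.38 (adjusted p = 0.0765). Samd9l, a restriction factor that blocks translation, was lower on every day 10 array by a small amount, at -0.36 ± 0.10 (adjusted p = 0.181). Only 1 of the 3 day 10 blood arrays had it well above background. Ifitm3, a membrane protein that hinders virus fusion, overlapped between the groups, at 0.47 ± 0.22 (adjusted p = 0.357).

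In the IFIT family, whose proteins bind foreign RNA ends, Ifit1 (probe chr19:34715303-34715362, mm8) read 0.03, -0.29 and -0.02 in day 0 blood and 0.61, 0.91 and 0.51 in day 10 blood. The difference was 0.77 ± 0.15 (adjusted p = 0.0787) with no overlap. Ifit2 and Ifit3 overlapped between the groups, at 0.16 ± 0.12 and -0.02 ± 0.13.

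In the OAS family, whose enzymes make the 2-5A signal that activates RNase L, Oas3 (probe chr5:121014206-121014265, mm8) had the smallest adjusted p of the 36 genes. It read -0.82, -0.92 and -0.68 in day 0 blood and -0.17, -0.20 and 0.00 in day 10 blood, a difference of 0.69 ± 0.11 (adjusted p = 0.0659). The 3 mice differed little from each other, at 0.66, 0.72 and 0.68. Oasl2 differed by 0.87 ± 0.55 without overlap. Oas1a, Oas2 and Oasl1 overlapped between the groups, at 0.22, -0.26 and -0.33.

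Of the immunity-related GTPases, which attack the vacuoles of intracellular parasites, Igtp differed by 0.70 ± 0.25 (adjusted p = 0.251), and its smallest difference, 0.14, was in mouse 834. The guanylate-binding proteins Gbp2 and Gbp3 stood at -0.28 ± 0.18 and -0.49 ± 0.14 (adjusted p = 0.555 and 0.19). Irgm1 stood at -0.31 ± 0.28. Among the RNA sensors, Ddx58 (RIG-I) and Dhx58 (LGP2) were dim (not well above background) on every day 10 blood array, and their differences were -0.55 ± 0.18 and -0.35 ± 0.16 (adjusted p = 0.226 and 0.365). Ifih1 (MDA5) was at -0.01 ± 0.09. Of the PYHIN genes, a family that includes DNA sensors, Ifi204 had the most negative difference of the list. It read 0.77, 0.80 and 1.27 in day 0 blood and 0.09, 0.28 and -0.04 in day 10 blood, a difference of -0.84 ± 0.24 (adjusted p = 0.178), and its 2 other probes gave -0.45 and -0.47. The remaining genes, Ifi203, Zbp1, Mx1, Mx2, Ifi44, Ifi35, Rtp4 and Parp14, overlapped between the bloods, with differences from -0.39 to 0.06. Probes of the Oas, Ifit, Gbp and PYHIN families can share signal between close paralogs.

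**Figure D2:**
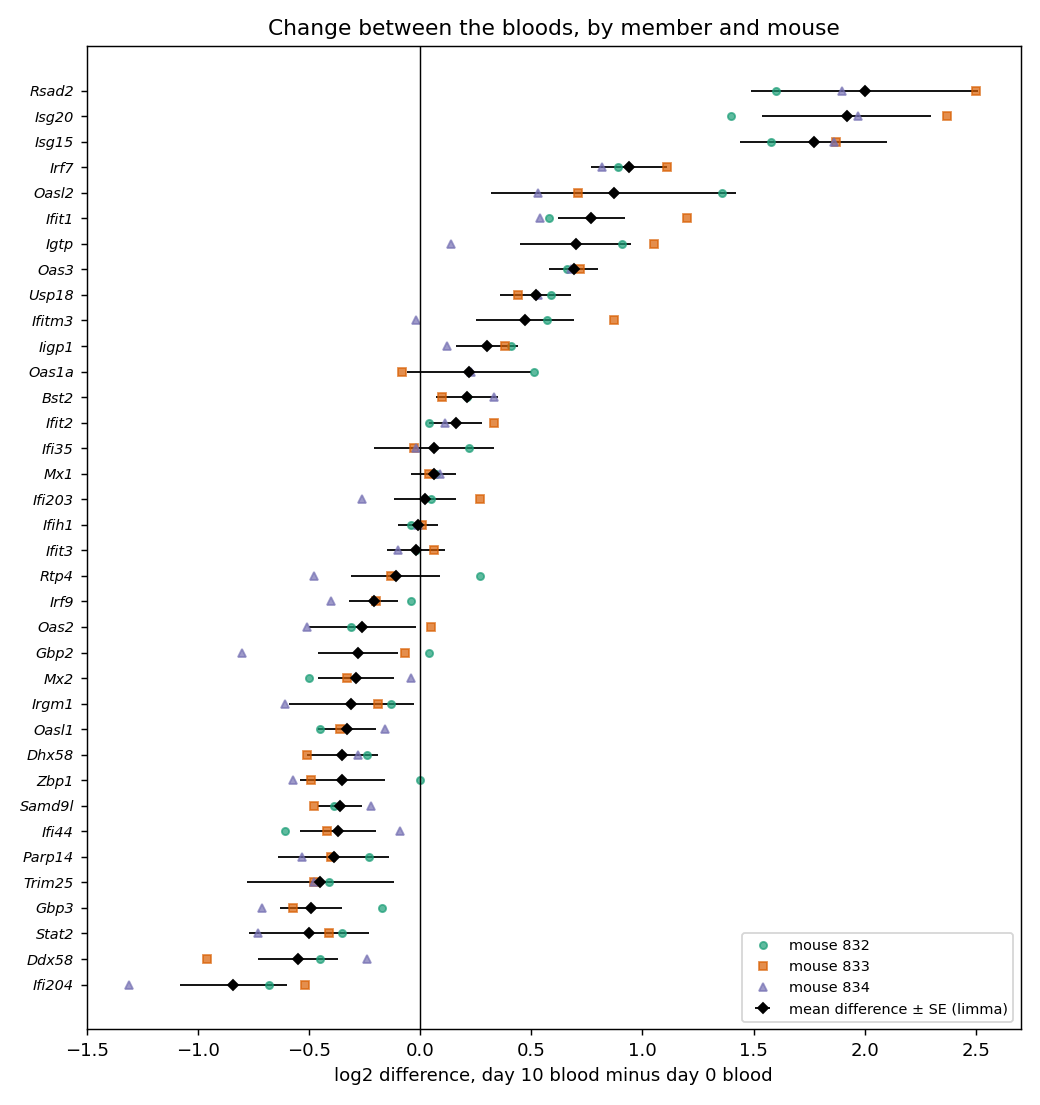
Log2 difference of day 10 minus day 0 blood (horizontal axis) for each of the 36 genes (rows, ordered by difference): black diamonds give the mean difference with the SE of the limma fit as bars, and coloured markers the difference of each mouse. Rsad2, Isg20 and Isg15 lie between 1.40 and 2.50 in every mouse, but after median centring they were at 0.28, 0.30 and 0.35, and no gene passed an adjusted p of 0.05.

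The same differences crossed the threshold in other fits. With only the 6 blood arrays in the fit, 7 genes were called higher (Isg15, Irf7, Isg20, Oas3, Rsad2, Ifit1 and Usp18), against 2.64% of all genes, and 1 lower (Ifi204), against 2.6%. In Cy5 alone 5 were higher (Ifit1, Irf7, Isg15, Isg20 and Oas3), against 1.69%, and 1 lower (Dhx58), against 2.46%. By the deposited ratio 2 were higher (Ifit1 and Irf7), against 0.989%, and 5 lower (Ddx58, Dhx58, Gbp3, Ifi44 and Mx2), against 4.32%. Among genes well above background on all 9 arrays, which left 20 of the 36, 3 were higher (Irf7, Isg15 and Isg20), against 2.59%, and none lower, against 1.18%. After median centring none was called, and Irf7, Ifit1 and Oas3 were at -0.17, -0.04 and -0.13, close to the median of all genes of -0.18. Across the 4 scalings 12 of the 36 genes were above the median of all genes in each, beside 22.9% of all genes, and 13 below it in each, beside 26.1%. On slide 3, which held the day 0 blood of mouse 834 and all 3 day 10 bloods, the differences were 1.49 for Rsad2, 1.55 for Isg15, 1.36 for Isg20, 0.92 for Irf7 and 0.70 for Ifit1.

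Markers of blood cell types moved between the same arrays. The 15 measured erythroid markers of 16 listed had array medians between -1.04 and -0.27 in the day 0 bloods and between 0.20 and 0.44 in the day 10 bloods, and 13 of the 15 did not overlap and were higher. After median centring their median difference was -0.07 in place of 1.02. Of 7 platelet markers 5 were higher without overlap, though their median difference of 0.72 was -0.29 after median centring, and of 10 B cell markers 7 were lower without overlap. Of 8 measured T cell markers 7 were higher without overlap, with a median difference of 0.55 by loess and -0.17 after median centring; 3 of the 8 were dim on every day 10 blood array. Of 11 neutrophil markers 4 were lower without overlap and none higher, with a median of -0.57 by loess and -1.14 after median centring. Of 11 monocyte and macrophage markers 1 was higher and 2 were lower without overlap, with a median of -0.04 by loess. Of 7 markers of plasmacytoid dendritic cells, the main producers of type I interferon in blood, 1 was higher and 2 were lower without overlap. The part of these cells in the differences of the interferon-stimulated genes was not tested.

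The second question was which of these genes are lost in the tumour fraction. Against day 10 blood, Rsad2 and Isg20 fell by 10.81 and 7.86 on the log2 scale in the TIC fraction and were lower and called in all 4 scalings. Bst2, Ifitm3 and Ddx58 were higher and called in all 4. Iigp1 was above 0 in all 4 too, but is described without a test, for the reason given below. By loess 21 of the 36 genes were called lower, against 33.1% of all genes, and 7 higher, against 34.4%, but after median centring 2 were lower, against 3.25% of all genes, and 24 higher, against 72.1%. Of the 7, Iigp1 and Mx1 passed the filter on dim probes through the TIC arrays alone, so that their being higher there says nothing about the list. The median of the 36 genes was -0.61 by loess, beside 0.07 for all genes. The median of the 36 minus that of all genes was -0.67 by loess, -2.11 by the deposited ratio and -0.79 in Cy5 alone. After median centring it was only -0.09, with 17 of the 36 above the median of all genes in place of 11 by loess. Relative to the median of all genes, 16 of the 36 lay below it in all 4 scalings, beside 29.5% of all genes, and 5 lay above it in all 4, beside 29.9%. These 16 were Rsad2, Isg20, Igtp, Isg15, Irf7, Oasl2, Oas3, Ifit1, Gbp2, Ifi203, Irf9, Zbp1, Samd9l, Ifit2, Stat2 and Oas2, and the 5 were Iigp1, Bst2, Ifitm3, Ddx58 and Usp18. Of the 5, Iigp1 passed the filter through TIC alone. Slide 3 held all 3 day 10 blood arrays and slides 1 and 2 the TIC arrays, so this comparison has no value within a slide. Between these 2 groups slide and group are fully confounded, and only the day 0 blood arrays link slide 3 to the TIC slides. With slide as a block 1498 of all 14253 genes were called higher and 2776 lower, in place of 4908 and 4724. Of the 36 genes, 8 lost their call there and 2 changed sign.

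Rsad2 read -10.40, -8.39 and -10.09 in the TIC fractions of mice 832, 833 and 834, where its probe was still well above background on all 3 arrays. The difference from day 10 blood was -10.81 ± 0.51 by loess (adjusted p = 1.20e-06), -9.81 by the deposited ratio, -6.71 in Cy5 alone and -3.97 after median centring. Its 2 other probes gave -7.77 and -7.43 by loess. Isg20 read -8.42, -8.18 and -8.36 in TIC, a difference of -7.86 ± 0.38 (adjusted p = 1.29e-06), with -7.19, -5.01 and -1.61 in the other scalings in the same order. By loess no TIC array came near a blood array for either gene. Ube2l6 read -7.61, -5.42 and -6.90 in TIC, and in the added fit its loess difference was -8.08 ± 0.55 (adjusted p = 1.03e-05); it was not computed in the other scalings. Igtp read -4.05, -3.40 and -4.13, a difference of -4.88 ± 0.25 by loess (adjusted p = 1.73e-06), and was below 0 but not called after median centring (-0.18).

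The next largest loess differences, of Isg15, Irf7, Oasl2, Oas3 and Ifit1, turned sign after median centring, where they stayed below the median of all genes. Isg15 read -4.95, -6.27 and -6.06 in TIC and fell by 4.26 (SE 0.33) by loess, but stood at 1.22 after median centring. Irf7 read -4.77, -4.10 and -4.72, with -3.82 ± 0.17 by loess and 0.47 after median centring. Oasl2 read -5.12, -2.85 and -4.95, with mouse 833 apart, and -2.91 ± 0.55 by loess (adjusted p = 0.00162) and 1.02, not called, after median centring (adjusted p = 0.0572). Oas3 read -2.95, -2.84 and -2.87, with -2.76 ± 0.11 by loess and 0.09 after median centring. Ifit1 read -1.65, -2.00 and -1.94, with -2.54 ± 0.15 by loess and 0.55 after median centring. All 3 TIC arrays of these 5 genes were below all blood arrays by loess, and the adjusted p of Isg15, Irf7, Oas3 and Ifit1 lay between 6.82e-07 and 9.35e-06. This comparison and that between the bloods share the day 10 blood arrays.

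By role and by loess, all 3 IFIT genes, 4 of 5 measured OAS genes (not Oas1a), Irf7 and Irf9 of 3 transcription factors, and Isg15 and Trim25 of 3 tested genes of ISG15 conjugation were called lower in TIC; after median centring each of these was above 0, from 0.09 (Oas3) to 2.12 (Oasl1). Of the GTPases, Gbp2 (-2.20 ± 0.18 by loess, 0.47 after median centring), Gbp3 and Igtp were lower. The call of Gbp3 (-0.41 ± 0.14, adjusted p = 0.0317) was lost with the mouse as a block (adjusted p = 0.0552), and it stood at 0.45 by the deposited ratio, 0.33 in Cy5 alone and 1.95 after median centring. Zbp1, a sensor of Z-form nucleic acid, stood at -1.57 ± 0.19 by loess and 1.11 after median centring. Ifi203 stood at -1.92 ± 0.14 by loess and 1.13 after median centring. Samd9l, Rtp4 and Parp14 stood at -0.88, -1.49 and -1.47 by loess and at 0.32, 2.71 and 1.86 after median centring. A second probe of Parp14 gave 0.01 by loess, of Trim25 0.00, of Ifit2 -0.18 and of Ifit3 0.25, so these calls rest on the brightest probe.

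Iigp1, an immunity-related GTPase, was dim (not well above background) on every blood array and read 1.60, 1.57 and 2.01 in TIC. Having passed the filter only through TIC, it is described without a test. Its difference from day 10 blood was 1.78 by loess and between 1.68 and 4.45 in the other scalings. The single-channel values were 3.42-fold higher, set against readings near background. Bst2, or tetherin, which holds budding virus on the cell surface, read -0.47, -0.47 and -0.57 in day 0 blood, -0.26, -0.36 and -0.24 in day 10 blood and 1.19, 0.71 and 1.22 in TIC. It was dim on every day 10 blood array (adjusted p = 6.15e-05 in limma's loess fit). From single-channel values it was 5.56-fold higher in TIC, set against readings near background. That fold is no lower bound, holds on the single-channel scale only and is larger than the loess difference. Its measured differences, 1.32 by loess and 2.80 to 4.60 in the other scalings, depended on the scaling in size but not in direction. Ifitm3 read -0.07, -0.21 and -0.43 in day 10 blood and 1.01, 0.41 and 0.95 in TIC, a difference of 1.03 ± 0.22 by loess (adjusted p = 0.00291) and of 1.28 to 6.62 in the other scalings. All 3 genes were higher in TIC than on every blood array.

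The other 4 genes called higher by loess changed little. Ifi44 stood at 0.54 ± 0.17 but at -0.18 in Cy5 alone, and Ifih1 at 0.30 ± 0.09 but at -0.03 in Cy5 alone. Mx1, whose antiviral GTPase is disrupted in most laboratory strains, stood at 0.34, was dim (not well above background) on every blood array and, like Iigp1, is described without a test; from single-channel values it was at least 1.09-fold higher. Ddx58 stood at 0.47 ± 0.18 (adjusted p = 0.0465) and was dim on every day 10 blood array. From single-channel values it was 1.48-fold higher in TIC, which is no lower bound. Its call was lost when any 1 of the TIC or day 10 blood arrays was left out (adjusted p = 0.0568 to 0.115). Without the day 10 blood of mouse 832 only 4 of the 7 higher calls were made, beside 4052 of all genes in place of 4908. Without the TIC of mouse 833, Stat2 (-0.96) and Irgm1 (-0.51) were also called lower and Ifi35 (0.65) and Mx2 (0.50) higher by loess. That array read 0.11 for Stat2, against -0.89 and -0.97 on the other TIC arrays, and 0.24 for Trim25, against -1.14 and -1.08. The 8 genes not called were Stat2 (called with the mouse as a block, -0.61, adjusted p = 0.0435), Dhx58, Usp18, Ifi35, Mx2, Oas1a, Irgm1 and Ifi204.

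**Figure D3:**
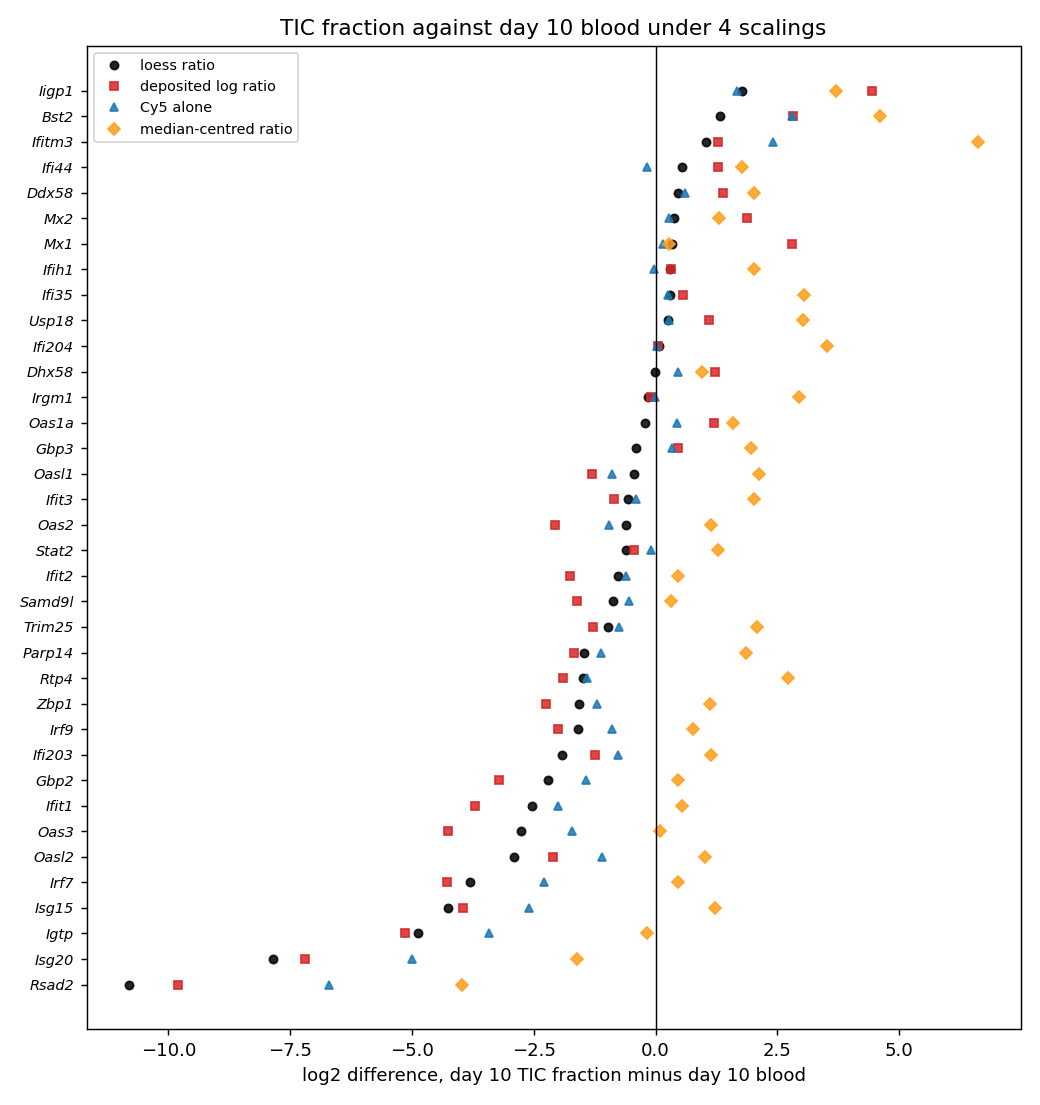
Log2 difference of the TIC fraction minus day 10 blood (horizontal axis) for the 36 genes (rows, ordered by the loess value) under 4 scalings, shown by colour and marker. Rsad2, Isg20 and Igtp are below 0 in all 4 scalings, Iigp1, Bst2 and Ifitm3 are above 0 in all 4, and most genes below 0 by loess are above 0 after median centring, where the median of all genes was 1.38.

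Against day 0 blood, which shares the TIC arrays with the comparison above, 23 of the 36 genes were called lower by loess, against 33.6% of all genes, and 6 higher, against 31.7%. After median centring 1 was lower, against 5.73% of all genes, and 19 were higher, against 66.2%. The 6 again include Iigp1 and Mx1. The median of the 36 was -0.88 by loess, beside 0.01 for all genes. The median of the 36 minus that of all genes was -0.89 by loess but -0.20 after median centring, where 16 of the 36 lay above the median of all genes. In all 4 scalings 18 of the 36 lay below the median of all genes, beside 32.7% of all genes. Rsad2 differed by -8.81 ± 0.51 by loess and -3.69 after median centring, and was the only gene lower and called in all 4 scalings. Isg20 differed by -5.95 ± 0.38 and -1.31, and Igtp by -4.18 ± 0.25 and -0.64. Irf7 and Isg15 differed by -2.88 ± 0.17 and -2.49 ± 0.33 by loess and stood at 0.30 and 1.57 after median centring. Stat2 (-1.11 ± 0.27, 0.60 after median centring) and Ifi204 (-0.76 ± 0.24, 2.17 after median centring) were called lower by loess here and not against day 10 blood; the 2 other probes of Ifi204 gave 0.19 and -0.09.

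Higher than in day 0 blood were Bst2 (1.54 ± 0.14), Ifitm3 (1.50 ± 0.22) and Usp18 (0.78 ± 0.16), each called in all 4 scalings. Ifih1 (0.29 ± 0.09) was called by loess and above 0 in all 4. Of the genes that passed the filter only through TIC, Iigp1 stood at 2.09 (at least 4.04-fold from single-channel values) and Mx1 at 0.41 (1.03-fold). Slide 2 held the TIC arrays of mice 833 and 834 and the day 0 blood arrays of mice 832 and 833, so only mouse 833 was shared. Within it the median of the 36 genes was -0.91, and the loess differences were -8.17 for Rsad2, -5.62 for Isg20, -4.00 for Igtp, 2.23 for Iigp1, 1.43 for Bst2 and 1.54 for Ifitm3.

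The rest of the interferon pathway was read from a list of 43 genes, of which 34 were measured. None was called between the bloods, where 10 were above 0 and 24 below, beside 6742 and 7511 of all 14253 genes. At an unadjusted p under 0.05 in limma, 1 was higher and 8 were lower, beside 1240 and 864 of all genes. In TIC against day 10 blood 18 were called lower and 4 higher by loess, beside 33.1% and 34.4% of all genes, and 0 lower and 30 higher after median centring, beside 3.25% and 72.1%. Against day 0 blood the loess counts were 20 lower and 2 higher, beside 33.6% and 31.7%, and the median-centred counts 0 and 24, beside 5.73% and 66.2%. Tlr9, the endosomal DNA sensor, differed from day 10 blood by -2.91 ± 0.32 by loess (adjusted p = 6.25e-05) and 1.90 after median centring. Irf2, a repressor of interferon targets, differed by -1.48 ± 0.15 (adjusted p = 3.73e-05) and 0.55, and Adar, the RNA-editing deaminase, by -1.29 ± 0.15 (adjusted p = 0.00011) and 0.66. Ifnar2, a receptor chain, differed by -1.42 ± 0.18 (adjusted p = 0.000142) and 2.82. Against day 0 blood, Ptpn6, a phosphatase that restrains Jak kinases, differed by -2.20 ± 0.19 by loess (adjusted p = 2.12e-05) and 1.18 after median centring, and Myd88, the adaptor of Toll-like receptors, by -1.23 ± 0.12 (adjusted p = 4.45e-05) and 0.96. Irf2 differed by -1.54 ± 0.15 (adjusted p = 4.12e-05) and 0.11, and Socs3, a feedback inhibitor of cytokine signals, by -1.47 ± 0.17 (adjusted p = 0.000112) and 1.79. The genes called higher against day 10 blood by loess were Socs1, the feedback inhibitor of Jak kinases (0.98 ± 0.27), Eif2ak2, the kinase PKR (0.55 ± 0.11), Ifngr2 (0.54 ± 0.18) and Ifnlr1 (0.31 ± 0.11). Socs1, Eif2ak2 and Ifngr2 were above 0 in all 4 scalings, while Ifnlr1 stood at -0.08 by the deposited ratio. Socs1, Eif2ak2 and Ifnlr1 were dim on every day 10 blood array, so their differences set TIC against values near background. Of 7 listed interferon genes 2 were measured, and by loess neither was called in any comparison. Against day 10 blood, Ifng, which encodes interferon gamma, stood at 0.41 by loess and 0.52 in Cy5 alone, and was called higher after median centring (1.38) and by the deposited ratio (1.70). Ifng too was dim on every day 10 blood array.

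Cell type markers differed between TIC and day 10 blood as well. Of all genes 34.4% were called higher and 33.1% lower by loess, and 72.1% and 3.25% after median centring. By the deposited ratio 3820 of all 14253 genes were called lower, and in Cy5 alone 3319. All 15 erythroid markers were called lower by loess, by the deposited ratio and in Cy5 alone, and 12 of 15 after median centring. Their array medians were -7.51 to -6.27 in TIC against 0.20 to 0.44 in day 10 blood, and 4 of them were not well above background on any TIC array. All 7 platelet markers and all 10 B cell markers were lower by loess, and 6 and 4 of them after median centring. Of 8 T cell markers 7 were lower by loess, with a median of -2.46, but none was lower and 2 were higher after median centring. Of 11 neutrophil markers 7 were lower by loess, but none was lower and 3 were higher after median centring. Of 11 monocyte and macrophage markers 5 were higher and none lower by loess, and all 11 were higher after median centring. Of 11 hepatocyte and hepatoma markers 9 were higher in both of these scalings, while the other 2, Ahsg (-3.51) and H19 (-1.38), were lower by loess and none was lower after median centring. The array medians of the 11 were 1.20 to 2.22 in TIC against -0.04 to 0.08 in day 10 blood. Of these 11, 6 were dim on every day 10 blood array and 6 on every day 0 blood array. For the 11 monocyte and macrophage markers these counts were 6 and 4. Any marker dim on all blood arrays passed the filter through TIC alone, so its being higher there is no separate result. Of 7 plasmacytoid dendritic cell markers 4 were lower and 1 higher by loess, and none lower and 4 higher after median centring. The part of these cells in the differences of the interferon-stimulated genes was not tested.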

How the data were processed

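RNA of 9 samples was measured on 2-colour Agilent arrays. The authors deposited scanner tables with spot and background intensity per channel and the log10 ratio of sample over reference, made with Agilent Feature Extraction 10.5.1.1 per the file headers (9.1.3.1 per the submitters' processing notes). The deposited value table held the same log10 ratios. Background was corrected here by normexp (offset 50) and ratios were normalized by loess within arrays. Spots with non-uniform local background were set aside, and spots of a probe were averaged. Kept were probes that passed the scanner's background test (well above background) in Cy5 on 3 or more of the 9 arrays, and the brightest stood for each gene (14253 genes). A member that passed this filter in only 1 group was kept for its brightness there, so a difference there is not independent of the filter.

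Group differences were fitted over all 9 arrays in R 4.3.3 by limma 3.58.1 (lmFit, eBayes) with group as the only term, with Benjamini-Hochberg adjustment over all genes and a threshold of 0.05. The fit was tested on simulated data. For genes dim on all arrays of a group, a fold was computed per channel after loess with Aquantile scaling, open to dye bias. It set the other group against the larger of the reading and the array's lowest reading well above background. Only where the reading lay below that floor is the fold a lower bound. Against day 10 blood the folds of Bst2, Ddx58 and Iigp1 are plain channel differences. Such a fold holds on that scale only and can exceed the loess difference, as for Bst2 and Ddx58. The members and lists were chosen with earlier results of these data known. All 36 tested members are accounted for by role, with array values for those called or not overlapping that had the smallest p per role. Of the other pathway genes up to 4 called ones per comparison are named by smallest p, and the higher ones in TIC were added after their values were seen. The mouse number marks the same animal in each group. Deviations from the group means correlated between the bloods of the same mouse at 0.19, 0.35 and 0.24, and between blood and TIC at -0.06 to 0.06. The number of arrays limits the precision. Probe positions are those of the files (mm8), which give no exon or UTR, and gene names and promoters are RefSeq's (GRCm38.p6).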

Additional observations from a re-analysis of the deposited data

How the results depend on the processing

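The scaling decided most directions in the TIC fraction. A change of sign was counted only where the value was called in one of the settings. After median centring 22 genes changed sign against day 10 blood, to Dhx58 0.95, Gbp2 0.47, Gbp3 1.95, Ifi203 1.13, Ifit1 0.55, Ifit2 0.45, Ifit3 2.02, Irf7 0.47, Irf9 0.76, Irgm1 2.94, Isg15 1.22, Oas1a 1.58, Oas2 1.14, Oas3 0.09, Oasl1 2.12, Oasl2 1.02, Parp14 1.86, Rtp4 2.71, Samd9l 0.32, Stat2 1.28, Trim25 2.08 and Zbp1 1.11. Against day 0 blood 21 did, to Ddx58 1.48, Dhx58 0.63, Gbp3 1.20, Ifi203 0.50, Ifi204 2.17, Ifit1 0.50, Ifit2 0.41, Ifit3 1.59, Irf7 0.30, Irf9 0.13, Irgm1 2.11, Isg15 1.57, Oas1a 1.50, Oas2 0.63, Oasl1 1.44, Oasl2 0.87, Parp14 0.84, Rtp4 1.73, Stat2 0.60, Trim25 1.1 and Zbp1 0.30. Median centring made 24 members higher and 2 lower against day 10 blood (7 and 21 by loess) and 19 and 1 against day 0 blood (6 and 23), and other pathway genes 30 and 0 (4 and 18) and 24 and 0 (2 and 20). Against day 10 blood Dhx58 stood at 0.47, Gbp3 at 0.33, Ifi44 at -0.18 and Ifih1 at -0.03 in Cy5 alone, and Dhx58 at 1.21 and Gbp3 at 0.45 by the deposited ratio. With slide as a block Ddx58 stood at -0.09 and Ifi44 at -0.06, and 3 members were higher, beside 1498 of all 14253 genes. With mouse as replicate block and slide as block Ddx58 and Ifi44 stood at -0.04 and -0.13. In that fit 1 member was higher and 8 lower, beside 214 and 896 of all 14253 genes. With genes well above background on all 9 arrays 1 member was higher against either blood, since 20 of 36 members were left. Of the 3897 genes in that setting 692 were higher against day 10 blood and 621 against day 0 blood. Between the bloods, where none was called, 7 higher and 1 lower were called with only the blood arrays, 5 and 1 in Cy5 alone, 2 and 5 by the deposited ratio and 3 higher with genes well above background on all 9 arrays. Leaving out 1 array gave 4 to 8 higher and 17 to 23 lower against day 10 blood, 5 to 7 and 22 to 24 against day 0 blood, and 0 and 0 between the bloods. Over all 14253 genes these ranges were 4052 to 5673 and 4274 to 5272, 3621 to 5391 and 4421 to 5407, and 0 to 3 and 0 to 15. The mouse as replicate block left 7 and 21, 6 and 23, and 0 and 0, and apart from Gbp3 and Stat2 changed no call of a member. Over all genes it left 4736 and 4699, 4332 and 4770, and 29 and 3. Of 28 calls against day 10 blood, 3 held in all alternatives, 4 were lost in some and 21 changed sign in some, and of 29 against day 0 blood 5, 7 and 17. Iigp1, which passed the filter through TIC alone, is among the 3 and among the 5. The cause of these changes was not tested beyond the filter. The sample channel was dimmest in day 10 blood, where 6 of the 36 members were dim on every array.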
